A study of Mus musculus with 16 samples.

Results

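Germinal centre B cells of the light zone (LZ) were compared with those of the dark zone (DZ) 4 h after mice received anti-CD40, across all measured genes. The libraries were chosen by their labels: the 4 anti-CD40 LZ and the 4 anti-CD40 DZ libraries, 8 of the 16 in the series. All came from wild-type mice, from polyadenylated RNA of germinal centre B cells of lymph nodes, labelled LZ or DZ. The other 8 libraries, 4 LZ and 4 DZ, came from mice given an isotype control antibody, which has no intended target, and they served as the reference for the zone difference without anti-CD40. The labels used here give neither how the zones were separated, nor the number of mice behind a library, nor the antibody dose. Since nothing in them says that libraries of a group came from separate animals, the p-values measure the spread between these libraries, which may be technical.

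In a germinal centre, B cells shuttle between both zones. In the DZ they divide quickly and mutate their antibody genes. In the LZ they take up antigen, present it to helper T cells and compete for help, which reaches them largely through the receptor CD40. CD40 recruits TRAF adaptors and activates NF-kB, and selected cells switch on Myc, grow and return to the DZ. An antibody that binds and activates CD40 gives this signal without the T cell, and in vivo it can reach cells of either zone. In bulk samples, fewer cells of a type and less RNA per cell cannot be told apart.

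Anti-CD40 LZ libraries held 675629 to 914975 unique molecular identifiers (UMI, each a counted transcript copy) and anti-CD40 DZ libraries 493131 to 1465643. Depth overlapped between the zones (exact permutation test, two-sided p = 0.429, n = 4 per zone; 0.0286 is the smallest p that the 70 arrangements allow). On the first principal component of log2 CPM (UMI counts scaled to a common library total), all 4 anti-CD40 LZ libraries lay beyond every other library of the series. The anti-CD40 DZ libraries were split there: numbers 1 and 2, the deepest, lay at negative scores, and numbers 3 and 4, the shallowest, at positive scores. On the next component the library numbered 4 had the highest score of its group in all 4 groups.

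**Figure D1:**
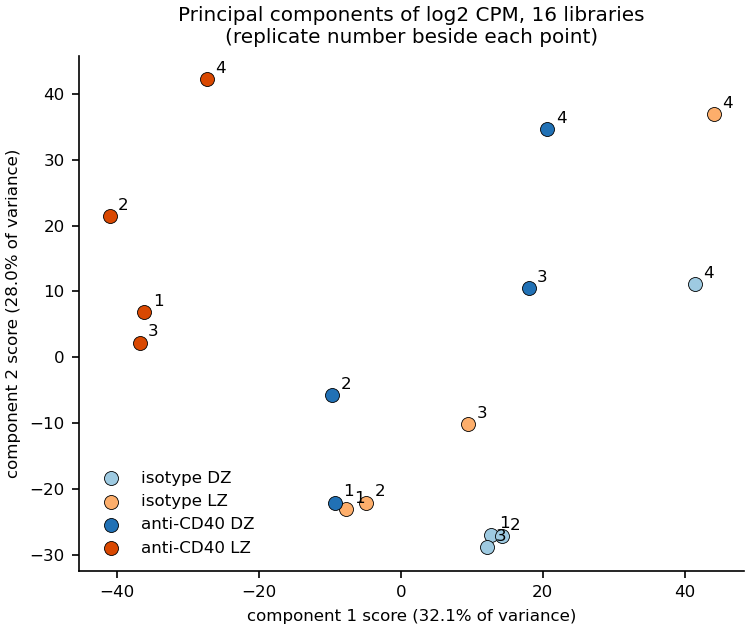
Scores of the 16 libraries on the first (x axis) and next (y axis) principal component of log2 CPM; colours mark the 4 groups and digits the replicate numbers. The anti-CD40 LZ libraries sit at -41.0 to -27.3 on the x axis and the anti-CD40 DZ libraries at -9.67 to 20.6, while isotype LZ and DZ libraries overlap on both axes. On component 3 (8.17% of variance, not drawn) the isotype zones do not overlap. The isotype LZ libraries score 5.57 to 29.9 there and the isotype DZ libraries -10.8 to -3.04.

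After anti-CD40, 786 of 6824 tested genes differed between the zones, 11.5% of them, at an adjusted p under 0.05 (edgeR quasi-likelihood test, Benjamini-Hochberg over all tested genes). Of these, 419 genes (6.14%) were higher in the LZ and 367 (5.38%) higher in the DZ. At least a 2-fold difference was reached by 451 genes (6.61%). For 682 of the 786, no LZ library overlapped any DZ library; over all tested genes, every LZ library lay above every DZ library for 8.59% and below for 7.62%. The balance between directions depended on the scaling: with upper quartile factors 341 genes were higher in the LZ and 472 in the DZ. Without the 2 shallowest anti-CD40 DZ libraries 399 genes passed, without LZ library 2 480, and without DZ library 3 498.

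Under isotype, where the zones were compared with the same test on other libraries, 152 genes passed (2.23%), 88 higher in the LZ (1.29%) and 64 in the DZ (0.938%), and 103 (1.51%) reached 2-fold. Every LZ library lay above every DZ library for 4.32% of genes, and below for 3.85%. The isotype count was 88 or 85 without isotype LZ library 1 or 2, and 98, 78 or 72 without isotype DZ library 1, 2 or 3. Of these 152, 109 also passed after anti-CD40 in the same direction, which is 71.7% of the isotype genes and 13.9% of the anti-CD40 genes, and 0 passed in opposite directions. Of the 786 genes, 712 had the same sign of fold change under isotype, 90.6%, beside 62.4% of all tested genes. The log2 fold changes of all genes had an SD of 0.60 after anti-CD40 and 0.44 under isotype, with nearly equal median SEs of 0.294 and 0.293. Across the 6824 genes, which are not independent replicates, the zone fold changes of the treatments had a Pearson r of 0.537, and r was 0.645 across the 1781 genes with a mean of at least 100 CPM.

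The difference between the treatments was also tested itself. The zone difference after anti-CD40 differed from that under isotype for 1 gene at an adjusted p under 0.05 (edgeR, 0.0147% of genes tested), and 586 genes (8.59%) had an unadjusted p under 0.05. DESeq2 called 37 genes in this test and limma-voom 1. With replicate number as a block in the edgeR fit 107 genes passed, 39 toward the LZ and 68 toward the DZ. The labels do not say what a replicate number marks, so the main fit left it out. Except for the 1 gene of the main fit, a pass after anti-CD40 beside a miss under isotype does not show unequal zone differences.

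**Figure D2:**
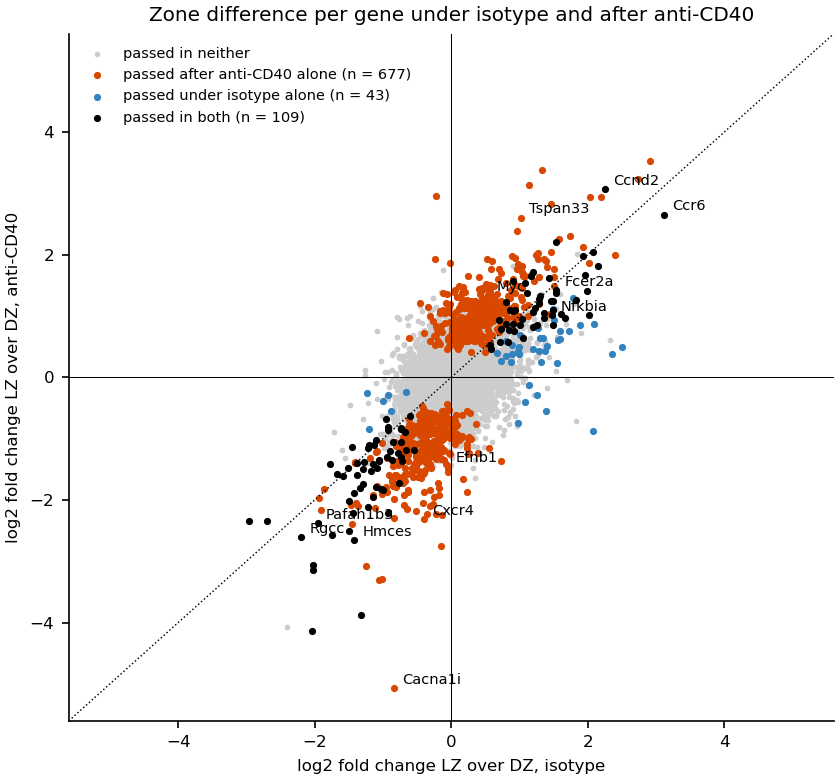
Each point is 1 of 6824 genes, with its log2 fold change LZ over DZ under isotype on the x axis and after anti-CD40 on the y axis; the dotted line marks equal values. Black points passed in both comparisons (109), orange after anti-CD40 alone (677) and blue under isotype alone (43).

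Known zone markers followed the labels after anti-CD40. Of 19 tested LZ markers, 14 were higher in the LZ and 0 in the DZ, with a median log2 fold change of 1.10 (0.03 over all tested genes); under isotype 10 were higher in the LZ and the median was 1.36. Of 19 tested DZ markers, 9 were higher in the DZ and 0 in the LZ, with a median of -0.90, and under isotype 3 were higher in the DZ with a median of -0.40. After anti-CD40, 73.7% of the LZ markers and 47.4% of the DZ markers passed, beside 11.5% of all genes tested. Without the 2 shallowest anti-CD40 DZ libraries the counts were 10 LZ markers and 7 DZ markers. Zones are commonly sorted by surface CXCR4 with CD83 or CD86. Whether that was done here is not given in the labels, so the values of Cxcr4, Cd83 and Cd86 are a check of the labels and not independent findings. Cd83 and Cd86 are nonetheless counted among the 14 LZ calls and Cxcr4 among the 9 DZ calls. They also count as calls in lists below: Cd83 for NF-kB and MHC class II, Cd86 for T cell contact and Cxcr4 for migration.

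Fcer2a (ENSMUSG00000005540.10, chr8:3681737-3694175, minus strand), which encodes the low-affinity IgE receptor CD23, stood at 1674, 1691, 1649 and 1752 CPM in the LZ libraries and at 577, 758, 539 and 657 CPM in the DZ libraries. All LZ values lay above all DZ values (log2 fold change 1.42 ± 0.14 SE with adjusted p = 5.18e-06). Its level in the stimulated DZ, 633 ± 97.1 CPM (SD, n = 4), was close to the 563 ± 49.3 CPM of the isotype LZ, a pair of groups that was not tested. Cd83, which stabilises MHC class II and CD86 at the surface, stood at 1502, 741, 1503 and 822 CPM in the LZ and 762, 563, 469.7 and 332 CPM in the DZ. Its zones overlapped by 1 pair of libraries (log2 fold change 1.10 ± 0.29 SE with adjusted p = 0.0175), and the call was lost without LZ library 1 or 3 or DZ library 3 or 4, at adjusted p = 0.0588 to 0.068 in edgeR. Cd86, the costimulatory ligand of CD28, averaged 158 ± 32.6 and 78.4 ± 31.2 CPM (SD, n = 4; log2 fold change 0.97 ± 0.29 SE with adjusted p = 0.0354). Its call was lost in edgeR without any of LZ libraries 1 to 3, DZ libraries 3 or 4 or isotype DZ library 3, at adjusted p = 0.0526 to 0.142, with upper quartile factors at 0.0635 and with thinned counts at 0.0637. Without the 2 shallowest anti-CD40 DZ libraries the adjusted p in edgeR was 0.219 for Cd83 (log2 fold change 0.75) and 0.350 for Cd86 (log2 fold change 0.55).

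Among the genes of at least 20 CPM with the largest differences toward the LZ, Ccnd2 (ENSMUSG00000000184.12, chr6:127125162-127152193, minus strand), which encodes the G1 cyclin D2, stood at 129.9, 226, 114 and 127 CPM in the LZ against 10.9, 26.04, 9.65 and 22.5 CPM in the DZ (log2 fold change 3.07 ± 0.35 SE with adjusted p = 2.27e-05), and LZ library 2 was the highest by a wide gap. Under isotype the zones averaged 11.5 and 2.12 CPM.

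Tnfrsf8, which encodes CD30, a TNF receptor family member, had 60.9, 233, 83.4 and 332 CPM in the LZ and 6.25, 27.3, 9.65 and 34.8 CPM in the DZ (log2 fold change 3.22 ± 0.53 SE with adjusted p = 5.79e-04). Libraries numbered 2 and 4 were the highest of their zone in both zones, and yet no LZ library fell to the level of a DZ library. Il1r2, the decoy receptor for interleukin-1, was at 24.1, 39.4, 15.8 and 17.4 CPM in the LZ and 3.13, 3.91, 1.61 and 2.05 CPM in the DZ (log2 fold change 2.94 ± 0.51 SE with adjusted p = 8.72e-04). Ccr6 (ENSMUSG00000040899.14, chr17:8236043-8257141, plus strand), the receptor for the chemokine CCL20, had 27.3, 15.8, 25.9 and 17.4 CPM in the LZ and 3.91, 2.60, 4.83 and 2.05 CPM in the DZ (log2 fold change 2.65 ± 0.42 SE with adjusted p = 4.02e-04). By library total, 3 UMI equal 5.05 CPM in DZ library 3 and 6.08 CPM in DZ library 4. Il1r2 and Ccr6 had no more than 3 UMI in either, so both fold changes rest on few DZ counts. Ccr6 was also higher in the LZ under isotype, at 38.8 ± 13.8 against 4.12 ± 1.97 CPM (SD, n = 4; log2 fold change 3.12, adjusted p = 6.28e-05 in edgeR).

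Tspan33, a tetraspanin associated with activated B cells, had 159, 268, 127 and 207 CPM in the LZ and 17.98, 50.8, 28.96 and 22.5 CPM in the DZ (log2 fold change 2.60 ± 0.33 SE with adjusted p = 6.00e-05). The lowest LZ library lay above the highest DZ library by a wide gap. The others were the transcriptional repressor Tcf7l1 (3.53 ± 0.63, log2 fold change ± SE), the adhesion G protein-coupled receptor Adgrg1 (3.38 ± 0.58), the nucleoside transporter Slc29a2 (2.95 ± 0.55), the receptor tyrosine phosphatase Ptprs (2.93 ± 0.60), the lysophospholipid transporter Mfsd2a (2.83 ± 0.47) and the survival gene Bcl2a1d (2.38 ± 0.43). The 12 genes had a mean of 21.6 CPM (Ccr6) to 190.4 CPM (Tspan33) in the LZ. Without DZ library 2 the log2 fold change of Adgrg1 was 4.22 and that of Ptprs 3.53. Ptprs stood at 4.56 CPM in DZ library 2 and at 1.56 to 2.05 CPM in the other DZ libraries, so its fold change also rests on few DZ counts. Bcl2a1d and Bcl2a1b are near-identical copies of each other, so counts may be split between them and each value is uncertain.

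**Figure D3:**
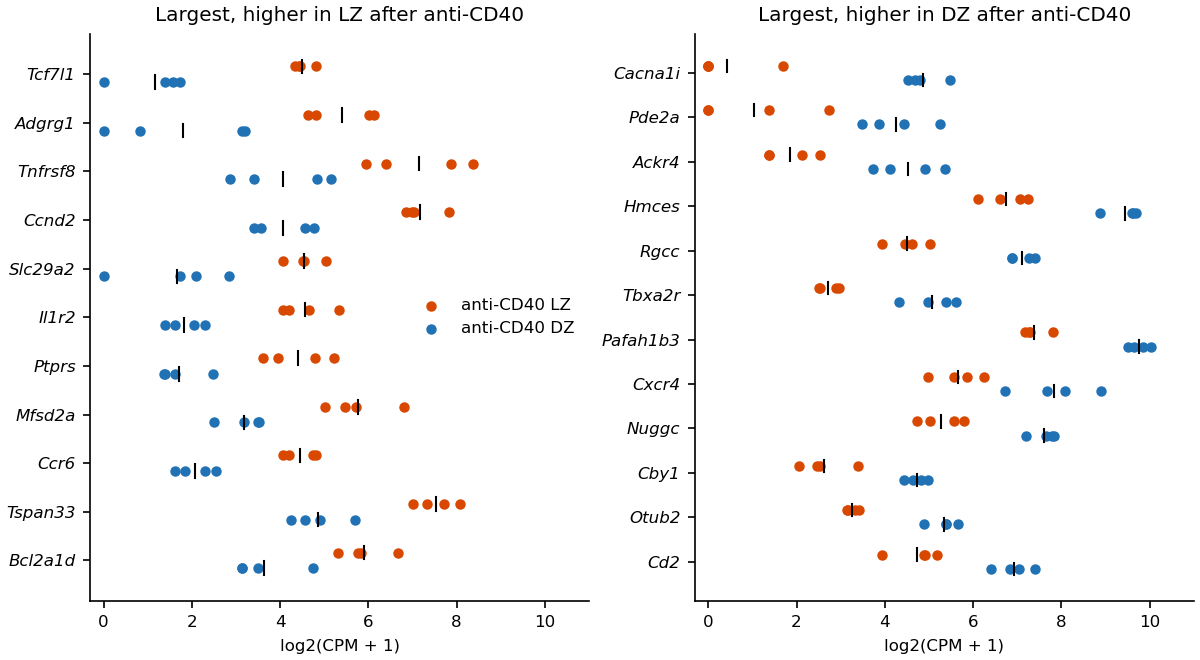
Log2(CPM + 1) in each anti-CD40 library (orange LZ, blue DZ; n = 4 each) for 11 of the genes with the largest difference toward the LZ (left) and the 12 toward the DZ (right); black ticks are means. In each of the 23 rows the LZ and DZ points do not overlap, which was part of how the genes were chosen.

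Toward the DZ, the largest difference was that of Cacna1i (ENSMUSG00000022416.15, chr15:80287238-80398279, plus strand), which encodes the pore of a T-type calcium channel. Its 4 LZ libraries were at 0, 0, 2.25 and 0 CPM and its DZ libraries at 21.9, 26.7, 43.4 and 24.6 CPM. In UMI this was 2 in the LZ against 108 in the DZ, a ratio of depth-adjusted counts of 38.2 with an exact 95% interval of 10.3 to 319 that covers counting error only. Cacna1i was the 1 gene whose zone difference itself differed between the treatments (interaction -4.22 on the log2 scale, adjusted p = 0.0388 in edgeR). Under isotype it stood at 25.5, 22.3, 18.6 and 29.98 CPM in the LZ and 42.9, 38.5, 41.1 and 51.5 CPM in the DZ, so the isotype LZ expressed it and the stimulated LZ hardly did. The fitted fold change of -5.06 rests on those 2 UMI, both in LZ library 3, and was -7.59 without that library, where it depends on the prior count because the other LZ libraries are at 0. The interaction call was lost without the libraries numbered 4, and also without LZ library 1, 2 or 4, DZ library 2, 3 or 4, any isotype LZ library, or isotype DZ library 1, 2 or 3. DESeq2 gave it no adjusted p, so it is not among the 37 genes called there.

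Hmces (ENSMUSG00000030060.14, chr6:87913935-87936629, plus strand) encodes a protein that shields abasic sites in single-stranded DNA. It stood at 151, 96.2, 133 and 68.1 CPM in the LZ and 772, 469, 825 and 782 CPM in the DZ (log2 fold change -2.66 ± 0.25 SE with adjusted p = 2.18e-06), so that even DZ library 2, the lowest of its zone, lay far above the LZ. Under isotype the same direction passed, with 411 ± 105 against 1099.7 ± 144 CPM (SD, n = 4). Cxcr4 (ENSMUSG00000045382.6, chr1:128588199-128592293, minus strand), the chemokine receptor that holds cells in the DZ, had 30.5, 56.8, 46.2 and 74.4 CPM in the LZ and 105, 204, 270.3 and 473 CPM in the DZ (log2 fold change -2.31 ± 0.49 SE with adjusted p = 0.00384). The zones did not overlap, but the DZ libraries spread widely, and the call was lost without DZ libraries 3 and 4 (log2 fold change -1.61, adjusted p = 0.0836 in edgeR). Under isotype Cxcr4 did not pass, with 106, 90.7, 123 and 388 CPM in the LZ and 181, 182, 181 and 389.7 CPM in the DZ. In each isotype zone library 4 stood far above the others.

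Rgcc, a regulator of the cell cycle, had 20.8, 14.2, 23.7 and 31.7 CPM in the LZ and 152, 117, 167 and 117 CPM in the DZ (log2 fold change -2.60 ± 0.23 SE with adjusted p = 1.65e-06). Pafah1b3, a catalytic subunit of a platelet-activating factor acetylhydrolase, had 224, 155, 144 and 152 CPM in the LZ and 1043, 729.6, 798 and 926 CPM in the DZ (log2 fold change -2.37 ± 0.20 SE with adjusted p = 1.24e-06). Both were also higher in the DZ under isotype, by -2.20 and -1.96 as LZ over DZ on the log2 scale. Nuggc, a nuclear GTPase of germinal centre cells, had 46.5, 31.5, 54.1 and 25.3 CPM in the LZ and 199, 145, 219 and 227 CPM in the DZ (log2 fold change -2.30 ± 0.28 SE with adjusted p = 4.90e-05). The remaining genes were the phosphodiesterase Pde2a (-3.07 ± 0.61, log2 fold change ± SE), the scavenging chemokine receptor Ackr4 (-3.06 ± 0.49), the thromboxane receptor Tbxa2r (-2.50 ± 0.39), Cby1, which binds beta-catenin (-2.23 ± 0.33), the deubiquitinase Otub2 (-2.21 ± 0.28) and the adhesion receptor Cd2 (-2.20 ± 0.25). The value of Pde2a was -4.81 without LZ library 3.

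Genes of the CD40 pathway differed between the zones after anti-CD40. Cd40 itself (ENSMUSG00000017652.16, chr2:165055627-165072948, plus strand) stood at 829, 852, 724 and 844 CPM in the LZ and 452, 476, 357 and 395 CPM in the DZ (log2 fold change 0.95 ± 0.13 SE with adjusted p = 1.25e-04). The zones did not overlap, and under isotype the log2 fold change was 1.04 (adjusted p = 2.01e-04 in edgeR), with 248 ± 14.1 and 121 ± 6.37 CPM (SD, n = 4). Of 31 tested NF-kB subunits, inhibitors and targets, 13 were higher in the LZ and 0 in the DZ after anti-CD40 (median log2 fold change 0.63), and 10 and 1 under isotype (median 0.79). The share that passed after anti-CD40 was 41.9%, beside 11.5% of all genes tested. Without the 2 shallowest anti-CD40 DZ libraries 8 of the list were higher in the LZ. For 28 of the 31, the mean of the stimulated DZ lay above that of the isotype LZ, beside 3475 of the 6824 genes. Of the called members, Bcl2a1b, Bcl2a1d, Cd40, Cd83 and Nfkbia were also called in the LZ marker list. Tnfsf9 and Icam1 were also called in the list of T cell contact genes.

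Nfkbia (ENSMUSG00000021025.8, chr12:55489410-55492647, minus strand) encodes IkappaB-alpha, the inhibitor that NF-kB induces against itself. It had 3218, 3925, 3468 and 2973 CPM in the LZ and 1750.0, 2149, 1224 and 1577 CPM in the DZ (log2 fold change 1.02 ± 0.16 SE with adjusted p = 3.90e-04). The stimulated DZ thus stood at 1675 ± 384 CPM beside 752 ± 79.5 CPM in the isotype LZ (SD, n = 4). Ebi3, a subunit of interleukins 27 and 35, had 625, 837, 486 and 605 CPM in the LZ and 205, 312, 108 and 178 CPM in the DZ (log2 fold change 1.65 ± 0.25 SE with adjusted p = 2.60e-04). Tnfsf9, the ligand of 4-1BB, had 234, 389.5, 258 and 282 CPM in the LZ and 46.1, 104, 38.6 and 115 CPM in the DZ (log2 fold change 1.94 ± 0.29 SE with adjusted p = 2.69e-04). For Nfkbia, Ebi3 and Tnfsf9 every LZ library lay above every DZ library. Icam1, the adhesion ligand of LFA-1, averaged 469 ± 114 and 241 ± 55.4 CPM (SD, n = 4; log2 fold change 0.96 ± 0.18 SE with adjusted p = 0.00191).

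The promoters of Nfkbia and Ebi3 are shown because each holds a match to the kappaB consensus, the site that NF-kB binds, which is in capitals. The windows run from 250 bases before to 50 after the RefSeq start in GRCm38.p6 and are written 5′ to 3′ on the strand of the gene, with the Nfkbia window at chr12:55492598-55492897, minus strand, and the Ebi3 window at chr17:55952373-55952672, plus strand.
Nfkbia: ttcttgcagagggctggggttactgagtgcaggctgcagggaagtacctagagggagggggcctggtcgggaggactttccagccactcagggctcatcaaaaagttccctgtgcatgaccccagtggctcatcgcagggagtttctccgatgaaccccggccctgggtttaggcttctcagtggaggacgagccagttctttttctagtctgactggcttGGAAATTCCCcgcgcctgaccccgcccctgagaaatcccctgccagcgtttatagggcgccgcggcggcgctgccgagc
Ebi3: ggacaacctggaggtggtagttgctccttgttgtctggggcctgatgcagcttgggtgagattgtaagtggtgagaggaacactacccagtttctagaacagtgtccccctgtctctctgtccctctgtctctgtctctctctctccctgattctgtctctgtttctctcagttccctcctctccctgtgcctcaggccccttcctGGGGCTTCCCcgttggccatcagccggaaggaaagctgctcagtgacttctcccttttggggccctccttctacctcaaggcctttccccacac
Both strands were searched, and in Nfkbia the match lies on the opposite strand. Of the NF-kB list, 11 of 25 tested genes with a promoter in the table held such a match, 44.0%, beside 4.97% of 5596 promoters of tested genes. Of the promoters of genes higher in the LZ after anti-CD40 5.85% held one, and of those higher in the DZ 7.19%. A match is a description of the letters and not a measured binding site.

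Among 20 tested TNF superfamily and CD40 proximal genes, 5 were higher in the LZ and 2 in the DZ (2 and 1 under isotype). After anti-CD40 that is 35% of the list, beside 11.5% of all genes tested. The LZ count was 3 without the 2 shallowest anti-CD40 DZ libraries. The DZ pair were Traf5, an adaptor of CD40 and related receptors, at 89.8, 42.6, 50.7 and 64.9 CPM in the LZ and 132, 145, 158 and 135 CPM in the DZ (log2 fold change -1.21 ± 0.20 SE with adjusted p = 5.66e-04), and Ltb, lymphotoxin-beta, at 1487 ± 308 and 2519.8 ± 252 CPM (SD, n = 4; log2 fold change -0.76 ± 0.15 SE with adjusted p = 0.00203). Traf5 and Ltb did not overlap between zones. Among 21 cytokine receptors and signalling genes, 3 were higher in the LZ and 1, the TGF-beta receptor gene Tgfbr1, in the DZ (log2 fold change -1.38 ± 0.32 SE with adjusted p = 0.00723). That is 19% beside 11.5% of all genes tested, and under isotype the counts were 4 and 1.

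Myc and the genes it is known to drive lay on the LZ side. Myc (ENSMUSG00000022346.15, chr15:61985391-61990374, plus strand), a transcription factor of cell growth, stood at 224, 353, 255 and 242 CPM in the LZ and 76.6, 163, 98.1 and 79.9 CPM in the DZ. The zones did not overlap (log2 fold change 1.34 ± 0.26 SE with adjusted p = 0.00245). In the isotype groups Myc averaged 32.5 ± 13.02 CPM in the LZ and 21.9 ± 5.84 CPM in the DZ (SD, n = 4) and did not pass (log2 fold change 0.54, adjusted p = 0.572 in edgeR), and the difference between these zone fold changes did not pass (adjusted p = 0.62). Every stimulated DZ library thus had more Myc than any library of either isotype zone.

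Of 49 tested Myc targets and ribosome assembly genes, 40 were higher in the LZ and 0 in the DZ after anti-CD40, with a median log2 fold change of 0.99, and 2 and 0 under isotype with a median of 0.39. The share that passed after anti-CD40 was 81.6%, beside 11.5% of all genes tested. All 49 had a positive fold change after anti-CD40, and 3589 of the 6824 genes did. The count was 25 without LZ library 2, 25 without the 2 shallowest anti-CD40 DZ libraries and 20 without the 2 deepest. No member of this list passed the test of the difference between treatments. For 42 of the 49 the stimulated DZ mean was above the isotype LZ mean.

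Srm, spermidine synthase, had 518, 565, 336 and 673 CPM in the LZ and 165, 185, 134 and 219 CPM in the DZ (log2 fold change 1.57 ± 0.21 SE with adjusted p = 1.20e-04). Nhp2, a core protein of box H/ACA ribonucleoproteins, had 1268, 1224, 772 and 1194 CPM in the LZ and 499, 474, 362 and 528 CPM in the DZ (log2 fold change 1.26 ± 0.17 SE with adjusted p = 1.20e-04). Under isotype its zones averaged 311 and 265 CPM. Eif5a, a translation factor, had 2942, 3864, 3143 and 3397 CPM in the LZ and 1696, 1909.7, 1713 and 1919 CPM in the DZ (log2 fold change 0.88 ± 0.13 SE with adjusted p = 1.89e-04). The LZ and DZ libraries of Srm, Nhp2 and Eif5a did not overlap. Ldha, lactate dehydrogenase A, and Gnl3, nucleostemin, were higher in the LZ by 0.98 ± 0.15 and 1.37 ± 0.22 (log2 fold change ± SE), also with no overlap.

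Among 7 tested members of the Myc and Max network, 1 (Myc) was higher in the LZ and 1, Mxd4, in the DZ (28.6% beside 11.5% of all genes tested). Mxd4, a Max partner that represses E-box genes, was at 6.41, 3.15, 6.76 and 4.75 CPM in the LZ and 23.4, 15.6, 16.1 and 26.6 CPM in the DZ (log2 fold change -1.87 ± 0.35 SE with adjusted p = 0.00172). All its DZ libraries lay above its LZ libraries, at low counts. Under isotype the Mxd4 zones averaged 31.98 and 27.1 CPM.

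The promoters of Ldha and Cdk4 are shown for their E-boxes, the CACGTG site that Myc and Max bind, in capitals. They follow the same window and build, with Ldha at chr7:46845554-46845853, plus strand, and Cdk4, which encodes a kinase partner of D-type cyclins, at chr10:127063285-127063584, plus strand.
Ldha: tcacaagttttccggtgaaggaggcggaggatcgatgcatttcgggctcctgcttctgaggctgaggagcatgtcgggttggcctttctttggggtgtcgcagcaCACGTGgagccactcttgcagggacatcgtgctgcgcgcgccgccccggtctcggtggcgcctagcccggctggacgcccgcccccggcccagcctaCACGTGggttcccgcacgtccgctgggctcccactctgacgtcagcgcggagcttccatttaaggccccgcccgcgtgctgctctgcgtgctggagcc
Cdk4: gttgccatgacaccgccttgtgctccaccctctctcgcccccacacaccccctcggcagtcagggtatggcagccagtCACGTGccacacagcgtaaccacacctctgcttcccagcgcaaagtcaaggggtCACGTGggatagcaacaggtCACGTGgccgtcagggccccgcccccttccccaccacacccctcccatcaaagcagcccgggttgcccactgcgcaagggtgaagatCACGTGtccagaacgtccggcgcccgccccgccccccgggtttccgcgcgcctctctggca
Of promoters of genes higher in the LZ after anti-CD40, 71 of 342 held CACGTG, 20.8%, beside 28 of 306 of those higher in the DZ, 9.15%, and 11.5% of all 5596. In the Myc target list it was 13 of 42, 31.0%. Nothing was tested on these shares.

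Of 19 tested genes of cholesterol synthesis and uptake, 6 were higher in the LZ and 0 in the DZ (31.6% beside 11.5% of all genes tested), with a median log2 fold change of 0.82, beside 0 and 0 under isotype with a median of 0.31; without LZ library 2 the count was 3. These included Fdps, farnesyl diphosphate synthase, at 165, 183, 161 and 242 CPM in the LZ and 96.1, 83.96, 62.7 and 83.97 CPM in the DZ (log2 fold change 1.19 ± 0.21 SE with adjusted p = 9.45e-04), and the sterol desaturase gene Sc5d (log2 fold change 1.09 ± 0.23 SE with adjusted p = 0.00421). Fdps and Sc5d did not overlap between the zones. Of 27 genes of mTORC1, amino acid and one-carbon metabolism, 5 were higher in the LZ and 0 in the DZ (18.5% beside 11.5% of all genes tested). Under isotype the counts were 1 and 0. The anti-CD40 LZ count was 3 without any of LZ libraries 1 and 2, DZ libraries 1 to 3, isotype LZ library 3 or isotype DZ libraries 2 and 3, and also with upper quartile factors or thinned counts. They included Shmt2, the mitochondrial serine hydroxymethyltransferase, at 691, 842, 479 and 850.1 CPM in the LZ and 352, 412, 325 and 449 CPM in the DZ (log2 fold change 0.90 ± 0.17 SE with adjusted p = 0.00165), and the folate enzyme Mthfd1 (log2 fold change 1.04 ± 0.21 SE with adjusted p = 0.00245). Of 11 glycolysis genes 1, Ldha, was higher in the LZ, and of 40 respiratory chain and ATP synthase genes 2 were, both shares below that of all genes tested. The median of the respiratory list, 0.06, turned to -0.02 with upper quartile factors. Of 42 cytosolic ribosomal protein genes 0 passed in either direction by edgeR, although all 42 fold changes were positive, with a median of 0.23 (0.15 with upper quartile factors).

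**Figure D4:**
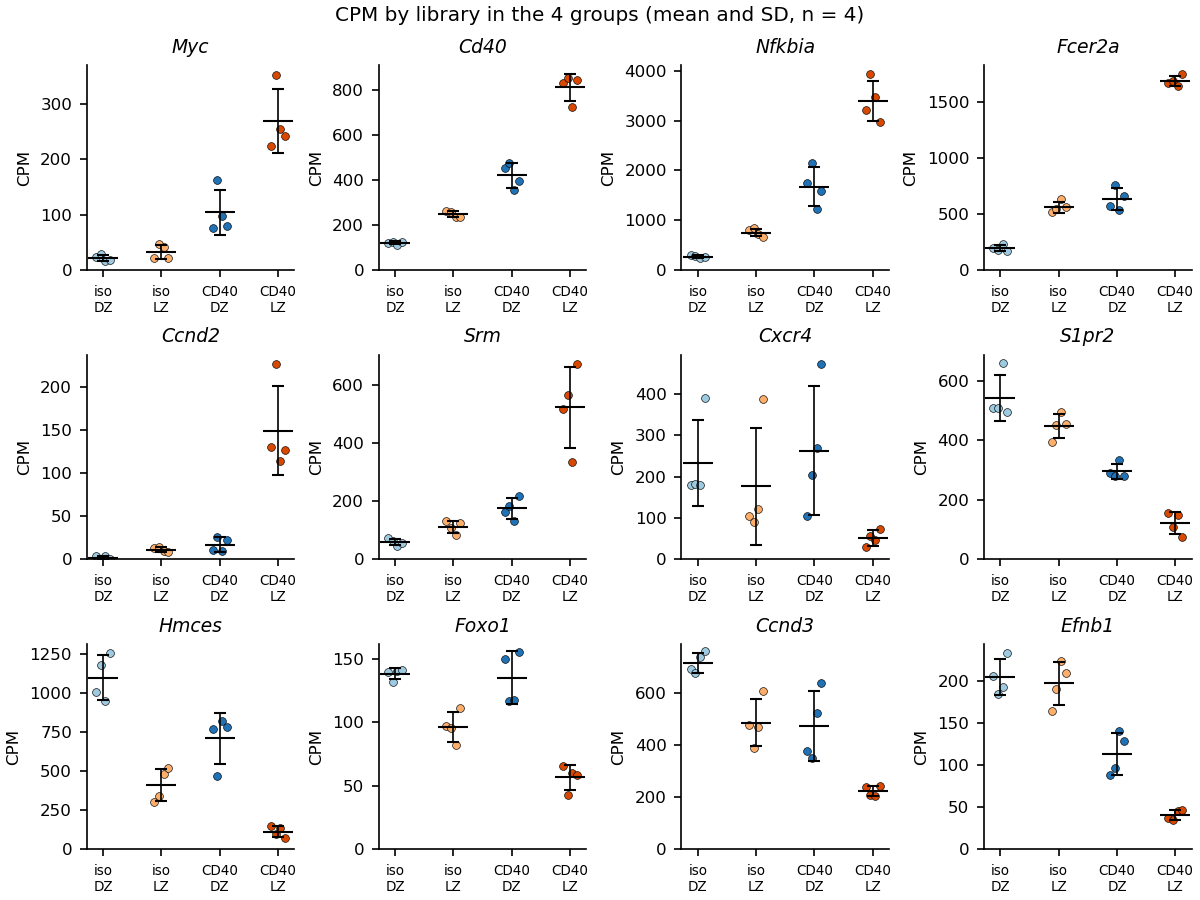
CPM of 12 genes in each library of the 4 groups (iso, isotype; CD40, anti-CD40); dashes are means and bars SDs, n = 4. After anti-CD40, Myc, Cd40, Nfkbia, Fcer2a, Ccnd2 and Srm are higher in the LZ, and Cxcr4, S1pr2, Hmces, Foxo1, Ccnd3 and Efnb1 are higher in the DZ.

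Cell cycle genes were examined by phase. Of 40 tested genes of mitosis and G2/M, 10 were higher in the DZ and 0 in the LZ, with a median log2 fold change of -0.52, and 5 and 0 under isotype with a median of -0.25. After anti-CD40 that is 25% of the list, beside 11.5% of all genes tested. The DZ count was 7 with thinned counts or without the 2 shallowest anti-CD40 DZ libraries, and 13 with upper quartile factors. Ccnb2, a mitotic cyclin, had 99.4, 55.2, 87.9 and 71.2 CPM in the LZ and 276, 162, 177 and 223 CPM in the DZ (log2 fold change -1.41 ± 0.20 SE with adjusted p = 1.53e-04). Cenpa, the histone variant of centromeres, had 149, 101, 135 and 135 CPM in the LZ and 367, 262, 320.1 and 268 CPM in the DZ (log2 fold change -1.23 ± 0.17 SE with adjusted p = 1.20e-04). Cdc25b, a phosphatase that starts mitosis, had 38.5, 66.2, 104 and 80.7 CPM in the LZ and 155, 194, 386 and 299 CPM in the DZ (log2 fold change -1.81 ± 0.32 SE with adjusted p = 0.00102). These genes did not overlap between the zones. Ccnb1, the other main mitotic cyclin gene, averaged 28.2 ± 7.14 and 29.4 ± 12.1 CPM (SD, n = 4) and did not pass (log2 fold change -0.10, adjusted p = 0.904 in edgeR).

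The Ccnb2 and Cenpa promoters are shown because mitotic genes often carry a cell cycle homology region, TTTGAA, near the start together with CCAAT boxes. Both motifs are in capitals, with ATTGG where the CCAAT lies on the other strand. The Ccnb2 window is at chr9:70421505-70421804, minus strand, and the Cenpa window at chr5:30666636-30666935, plus strand.
Ccnb2: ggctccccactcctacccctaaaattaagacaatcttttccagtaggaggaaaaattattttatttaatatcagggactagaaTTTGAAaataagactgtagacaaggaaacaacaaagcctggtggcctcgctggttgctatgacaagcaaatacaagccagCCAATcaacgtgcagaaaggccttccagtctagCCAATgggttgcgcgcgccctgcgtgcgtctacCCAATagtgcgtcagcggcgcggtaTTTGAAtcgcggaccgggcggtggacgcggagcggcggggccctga
Cenpa: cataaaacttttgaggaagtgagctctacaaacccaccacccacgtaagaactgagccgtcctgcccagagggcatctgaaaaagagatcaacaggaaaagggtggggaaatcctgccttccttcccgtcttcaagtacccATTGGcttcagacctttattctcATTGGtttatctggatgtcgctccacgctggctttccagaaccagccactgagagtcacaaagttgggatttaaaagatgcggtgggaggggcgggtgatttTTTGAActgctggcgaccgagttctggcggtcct
TTTGAA was found, on either strand, in 24 of 34 promoters of the mitosis list, 70.6%, beside 11.97% of all 5596, and CCAAT in 27 of 34, 79.4%, beside 39.6%. Of the promoters of all genes higher in the DZ 13.4% held TTTGAA, and of those higher in the LZ 9.94%.

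The G1 cyclins ran in opposite directions. Of 9 tested G1 cyclins, kinases and inhibitors, 2 were higher in the LZ (Ccnd2 and Cdk4) and 2 in the DZ (Ccnd3 and Cdkn2d). That is 44.4% of the list, beside 11.5% of all genes tested. Ccnd3, cyclin D3, which sustains division in the DZ, had 239, 208, 203 and 241 CPM in the LZ and 377, 350.2, 524 and 637 CPM in the DZ (log2 fold change -1.08 ± 0.18 SE with adjusted p = 7.97e-04). Cdkn2d, the inhibitor p19, had 40.1, 22.1, 31.6 and 17.4 CPM in the LZ and 85.98, 55.3, 75.6 and 65.5 CPM in the DZ (log2 fold change -1.33 ± 0.26 SE with adjusted p = 0.00208). Neither gene overlapped between the zones. Cdk4 averaged 655 ± 117 and 403 ± 85.7 CPM (SD, n = 4; log2 fold change 0.70 ± 0.16 SE with adjusted p = 0.00726), and its call was lost without DZ library 3 (adjusted p = 0.0555 in edgeR). Of 42 genes of DNA replication and G1/S, 1 was higher in the LZ and 3 in the DZ (9.52%, no more than the 11.5% of all genes tested; the DZ count was 1 without the 2 shallowest anti-CD40 DZ libraries), among them Rfc1, a clamp loader subunit (log2 fold change -1.19 ± 0.21 SE with adjusted p = 0.00105).

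Genes that place cells in the follicle and define the germinal centre state leaned to the DZ. Of 19 migration and positioning genes, 5 were higher in the DZ and 2 in the LZ, with a median log2 fold change of -0.63 (0 and 1 under isotype, median 0.06). After anti-CD40 36.8% of the list passed in either direction, beside 11.5% of all genes tested. Without the libraries numbered 4 the DZ count was 8. Without the 2 shallowest anti-CD40 DZ libraries the counts were 4 in the DZ and 1 in the LZ. S1pr2 (ENSMUSG00000043895.6, chr9:20962361-20976781, minus strand), the receptor that confines cells to the germinal centre, had 157, 110.4, 149 and 74.4 CPM in the LZ and 290.0, 281, 333 and 281 CPM in the DZ (log2 fold change -1.26 ± 0.19 SE with adjusted p = 2.69e-04). Efnb1, ephrin-B1, a germinal centre surface ligand, had 36.9, 34.7, 45.1 and 45.9 CPM in the LZ and 87.5, 96.98, 140.0 and 129 CPM in the DZ (log2 fold change -1.45 ± 0.19 SE with adjusted p = 1.11e-04). S1pr4, a related lipid receptor, averaged 15.2 ± 2.71 and 55.4 ± 21.5 CPM (SD, n = 4; log2 fold change -1.83 ± 0.29 SE with adjusted p = 4.00e-04). All 3 were without overlap. Under isotype Efnb1 was nearly level between zones, at 197 and 204 CPM, and S1pr2 at 449.7 and 544 CPM. The test of the difference between treatments gave an unadjusted p of 3.32e-05 and an adjusted p of 0.113 for Efnb1 in edgeR.

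Of 17 B cell and germinal centre identity genes, 6 were higher in the DZ and 1 in the LZ (1 and 0 under isotype). After anti-CD40 that is 41.2% of the list, beside 11.5% of all genes tested. Gcsam, a germinal centre signalling protein, had 12.8, 25.2, 19.2 and 23.7 CPM in the LZ and 95.4, 102, 103 and 45.1 CPM in the DZ (log2 fold change -2.11 ± 0.32 SE with adjusted p = 2.69e-04), without overlap. Bcl6, the master repressor of the germinal centre program, stood at 156, 196, 237 and 131 CPM in the LZ and 270.4, 391, 154 and 129 CPM in the DZ and did not pass (log2 fold change -0.41 ± 0.42 SE with adjusted p = 0.621). Of 24 somatic hypermutation and repair genes 16.7% passed, near the 11.5% of all genes tested, with 3 higher in the DZ, among them Hmces and Neil1, and 1 in the LZ (Apex1, an abasic site endonuclease, whose adjusted p was 0.144 in edgeR without the 2 shallowest anti-CD40 DZ libraries). Neil1, a DNA glycosylase, had 332, 246, 316 and 228 CPM in the LZ and 963, 1133, 1209.7 and 719 CPM in the DZ (log2 fold change -1.84 ± 0.22 SE with adjusted p = 3.29e-05).

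Fate factors divided. Of 23 tested, 3 were higher in the LZ and 3 in the DZ (3 and 0 under isotype). After anti-CD40 that is 26.1% of the list, beside 11.5% of all genes tested. Without the libraries numbered 4 the DZ count was 5. Without the 2 shallowest anti-CD40 DZ libraries, and likewise without the 2 deepest, the counts were 2 in the LZ and 2 in the DZ. Irf4, needed for plasma cell fate and induced by CD40, had 321, 495, 367 and 401 CPM in the LZ and 115, 195, 109 and 211 CPM in the DZ (log2 fold change 1.33 ± 0.22 SE with adjusted p = 6.71e-04). Batf, its AP-1 partner, had 386, 498, 260.4 and 437 CPM in the LZ and 128, 176, 82.04 and 125 CPM in the DZ (log2 fold change 1.61 ± 0.25 SE with adjusted p = 4.00e-04). Foxo1, the transcription factor that maintains the DZ program, had 65.7, 42.6, 59.7 and 58.6 CPM in the LZ and 150.1, 117, 117 and 156 CPM in the DZ (log2 fold change -1.24 ± 0.18 SE with adjusted p = 1.76e-04). Bach2, a repressor of plasma cell fate, had 75.4, 56.8, 73.3 and 58.6 CPM in the LZ and 195, 113, 246 and 137 CPM in the DZ (log2 fold change -1.38 ± 0.29 SE with adjusted p = 0.00384). In these 4 genes the zones did not overlap. Of 16 FoxO and PI3K genes 2 were higher in the DZ and 0 in the LZ, and of 14 plasma cell and secretory genes 2 and 0, shares of 12.5% and 14.3% that were near the 11.5% of all genes tested. The latter included Mzb1, a chaperone of antibody assembly, at 864 ± 66.3 CPM in the LZ and 1956 ± 114 CPM in the DZ (SD, n = 4; log2 fold change -1.18 ± 0.13 SE with adjusted p = 1.30e-05).

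Of 16 genes of T cell contact, costimulation and adhesion, 6 were higher in the LZ and 1 in the DZ, with a median log2 fold change of 0.71 (1 and 0 under isotype, median 0.48), and 3 and 1 without the 2 shallowest anti-CD40 DZ libraries. With all libraries, 43.8% of the list passed after anti-CD40, beside 11.5% of all genes tested. Ly9, a SLAM family receptor, averaged 400.0 ± 95.7 and 189.8 ± 59.9 CPM (SD, n = 4; log2 fold change 1.07 ± 0.22 SE with adjusted p = 0.00327). Of 18 MHC class II presentation genes, 2 were higher in the LZ and 1 in the DZ. Ifi30, a thiol reductase that prepares antigen, had 2474, 1788, 1708 and 1714 CPM in the LZ and 1075, 970.5, 724 and 834 CPM in the DZ (log2 fold change 1.09 ± 0.19 SE with adjusted p = 8.72e-04). Of 29 B cell receptor signalling genes, 1 was higher in the LZ and 3 in the DZ, and the DZ count was 1 without LZ library 2 or without the 2 shallowest anti-CD40 DZ libraries. Both this list and the MHC class II list had shares of calls, 13.8% and 16.7%, that were near the 11.5% of all genes tested. Of 13 immediate early genes, 4 were higher in the LZ and 1 in the DZ (38.5% beside 11.5% of all genes tested). The LZ count was 1 without any of LZ libraries 1 and 2 or DZ libraries 1, 3 and 4. It was 0 in edgeR without the 2 shallowest anti-CD40 DZ libraries and also without the 2 deepest.

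Of 22 apoptosis regulators, 6 were higher in the LZ and 4 in the DZ (1 and 0 under isotype). After anti-CD40 that is 45.5% of the list, beside 11.5% of all genes tested. Bcl2a1b, an NF-kB-induced survival gene, had 274, 369, 503 and 584 CPM in the LZ and 71.1, 106, 111 and 86.02 CPM in the DZ (log2 fold change 2.21 ± 0.27 SE with adjusted p = 4.48e-05), with the caveat on its copy Bcl2a1d. Bcl2l1, which encodes Bcl-xL, had 239, 501, 237 and 407 CPM in the LZ and 73.5, 189, 70.8 and 158 CPM in the DZ (log2 fold change 1.49 ± 0.33 SE with adjusted p = 0.00549). Mcl1, another survival gene, lay the other way, with 197, 151, 214 and 239 CPM in the LZ and 332, 322, 360.3 and 428 CPM in the DZ (log2 fold change -0.84 ± 0.17 SE with adjusted p = 0.00327). The zones of Bcl2a1b, Bcl2l1 and Mcl1 did not overlap. Without the 2 shallowest anti-CD40 DZ libraries the adjusted p of Bcl2l1 was 0.0538 and that of Mcl1 0.0507 in edgeR. Without LZ library 2 or DZ library 3 the LZ count of the list was 3, and without LZ library 3 or DZ library 3 the DZ count was 2. Without the 2 shallowest anti-CD40 DZ libraries both fell, to 2 and 1 of 24 tested. Of 13 interferon response genes 0 passed in edgeR.

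**Figure D5:**
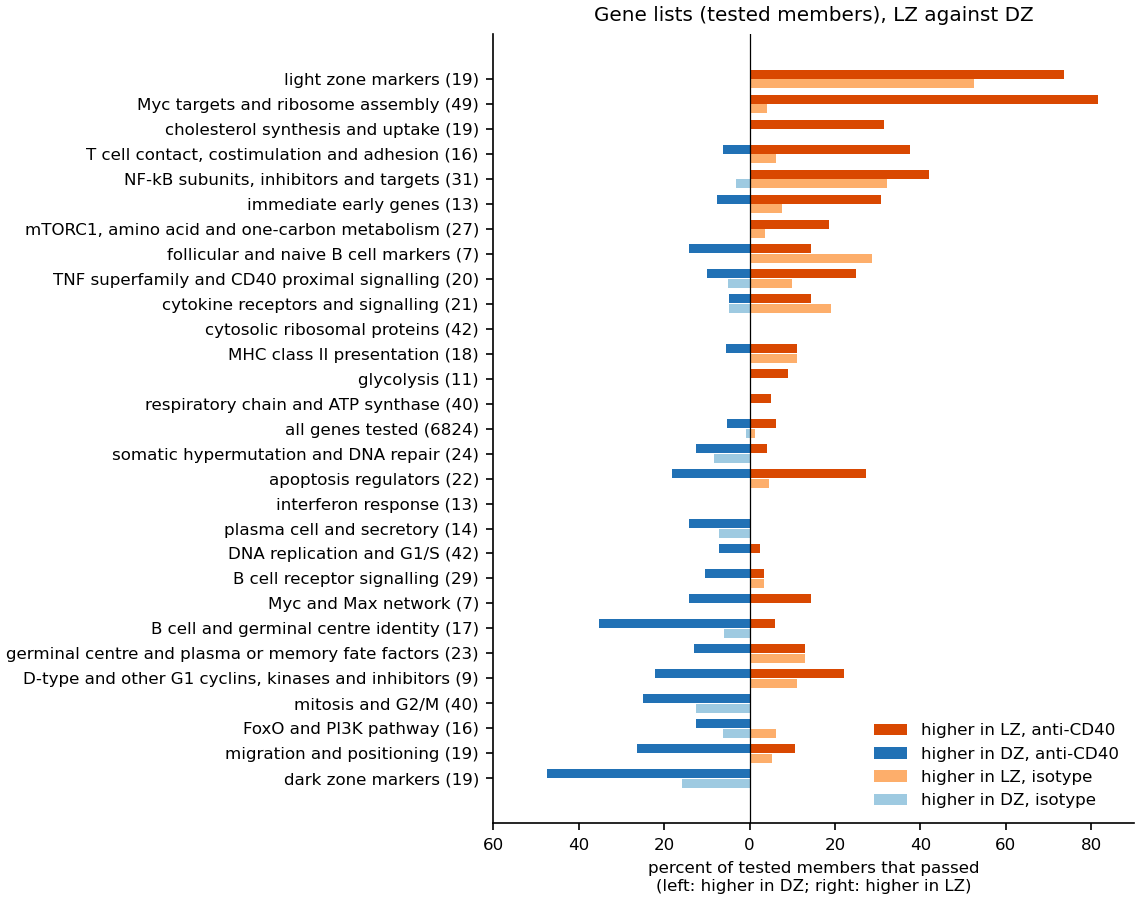
Share of the tested members of each gene list (number tested in brackets) that passed toward the LZ (right, orange) or the DZ (left, blue), after anti-CD40 (dark) and under isotype (pale), ordered by median log2 fold change after anti-CD40. Myc targets and LZ markers have the longest bars to the right and DZ markers the longest to the left; the row for all 6824 genes gives the background.

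Markers of other cell types were examined by list. Of 16 T cell markers 2 were listed, Lck and Tcf7, and none of the CD3 genes was, with a summed level of 68.4 to 88.8 CPM in the LZ and 68.9 to 89.2 CPM in the DZ, and of the 1 tested 0 passed. Of 19 myeloid and dendritic cell markers 5 were listed, at a summed 228 to 278 CPM in the LZ and 359 to 472 CPM in the DZ, which do not overlap. Of the 3 tested, Cst3, cystatin C, was higher in the DZ (log2 fold change -0.88 ± 0.19 SE with adjusted p = 0.00444), while Cd68 and Ctsd did not pass and had positive fold changes (0.44 and 0.12 on the log2 scale). Without Cst3 the summed level of the other 4 was 69.0 to 85.9 CPM in the LZ and 51.5 to 101 CPM in the DZ, which overlap. The part of these markers in other results was not tested. Of 16 stromal and follicular dendritic cell markers 5 were listed, at 61.1 to 104 CPM in the LZ and 71.0 to 129 CPM in the DZ, and of the 2 tested 0 passed. None of 10 red cell and platelet markers was listed. Of 7 tested follicular and naive B cell markers, 1 (Fcer2a) was higher in the LZ and 1 (Foxp1) in the DZ, a call that was lost in edgeR without LZ library 2 or 4 or DZ library 3 (adjusted p = 0.0557 to 0.0739). The share called was 28.6%, beside 11.5% of all genes tested. The summed level of the 13 listed was 1977 to 2183 CPM in the LZ and 1144 to 1422 CPM in the DZ. Fcer2a alone made the LZ sum the higher one, since the other 12 summed to 373 to 584 CPM in the LZ and 493 to 669.7 CPM in the DZ. Its part in the LZ result was not tested.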

How the data were processed

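The 16 libraries were made by 3' end sequencing in which each transcript copy receives a UMI at reverse transcription and is amplified linearly, per the labels' protocols. The deposited table holds raw UMI counts per gene for 9443 genes; reads had been trimmed with cutadapt, aligned with STAR and counted with HTSeq on mm10, per the submitters' processing notes, which give no versions. The authors also deposited log2 fold changes and p-values from DESeq2. Of the genes with an adjusted p under 0.05 in the authors' deposited table for this comparison (808), 740 were called here in the same direction. Immunoglobulin genes and genes of the mitochondrial genome are not among those listed.

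Counts were analysed with edgeR 4.0.16 in R 4.3.3. Genes kept by filterByExpr (minimum count 10; 6824 genes, 98.6% of UMI) were scaled with TMM factors and fitted with 4 group means over all 16 libraries (robust quasi-likelihood, biological coefficient of variation 24.6%). A gene passed, and is called higher, at a Benjamini-Hochberg adjusted p under 0.05. Fold changes are LZ over DZ on the log2 scale, CPM are TMM-scaled except summed markers of other cells, which use the library total, and SE is the fold change divided by the root of the F statistic. The fit was tested on simulated data. The spread within groups exceeded counting error: for pairs of replicates, chi-square over its degrees of freedom was 1.73 to 11.7. Positions are from GENCODE release 21 for mouse (GRCm38), and promoters from RefSeq, found for 82 of the 104 genes in the naming rule.

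That rule took up to 12 of the largest differences each way among genes that passed with no overlap between zones and at least 20 CPM in the higher zone, up to 6 each way for the interaction, up to 5 members of each of 32 lists with the smallest adjusted p, and 13 genes always. Immunoglobulin, T cell receptor, ribosomal, mitochondrial and unnamed genes were left out of the first 2 choices. Some genes that the rule takes are not reported here. The members and lists were chosen with earlier results of these data known. Some genes belong to several lists, so the counts of the lists are not independent. Alternatives were DESeq2 1.42.0, voom of limma 3.58.1, RLE and upper quartile factors, no filter or 20 counts in 4 libraries, only the compared groups, a replicate block, thinned counts, a threshold of 0.5 on the log2 scale, and libraries left out. Leaving out the 2 deepest or 2 shallowest anti-CD40 DZ libraries was added after seeing the data. Python 3.11.15 with SciPy 1.17.1 gave the exact permutation tests, and Matplotlib 3.10.9 the figures.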

Additional observations from a re-analysis of the deposited data

Results flagged for a closer look

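Among 212 groups of 4 libraries examined, 17 held a library far from the others by Dixon's test, where chance flags about 1 group in 20. The zone difference of Cacna1i differed between anti-CD40 and isotype by -4.22 on the log2 scale (adjusted p = 0.0388 in edgeR). That call rests on 2 UMI in the anti-CD40 LZ, has no adjusted p in DESeq2, which left it blank, and was lost in most of the fits with 1 library left out and without the libraries numbered 4.

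In anti-CD40 LZ library 1, Pafah1b3 stood at 224 CPM (144 to 155 in the others), Ifi30 at 2474 CPM (1708 to 1788) and Ly9 at 257 CPM (445 to 451). In LZ library 2, Ccnd2 stood at 226 CPM (114 to 129.9), Dusp2, a phosphatase of MAP kinases, at 1110.2 CPM (1001 to 1016), and Sqle, squalene epoxidase, at 55.2 CPM (38.0 to 39.5). LZ library 3 was the deepest of its group at 914975 UMI and had 9181 genes detected, and there Nhp2 stood at 772 CPM (1194 to 1268), Ldha at 916 CPM (1129 to 1165) and Cacna1i at 2.25 CPM (0 in the others).

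In anti-CD40 DZ library 2, Hmces stood at 469 CPM (772 to 825), Ptprs at 4.56 CPM (1.56 to 2.05) and Mthfd1 at 69.6 CPM (47.7 to 49.2). In DZ library 3, Bcl2a1d stood at 25.7 CPM (7.81 to 10.2) and Asns, asparagine synthetase, at 9.65 CPM (24.7 to 26.6), and in DZ library 4 Gcsam stood at 45.1 CPM (95.4 to 103).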

How the results depend on the processing

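Precision is limited by 493131 to 1465643 UMI per anti-CD40 library, so genes of few CPM rest on few counts. With 1 library left out, 480 to 943 genes passed after anti-CD40, 72 to 154 under isotype and 0 to 2 in the interaction. With the 2 shallowest anti-CD40 DZ libraries left out the anti-CD40 count was 399 and the interaction count 0, and with the 2 deepest left out the interaction count was 2. Tested against a log2 difference of 0.5, 256, 34 and 0 genes passed. The isotype count was 235 with DESeq2 and 101 with only the compared groups. In the interaction DESeq2 called 37, upper quartile factors 2, and the fit without the libraries numbered 4 called 0. The other alternatives, apart from the replicate block, kept the counts within 1.5 times. The cause of these shifts was not tested.

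The labels do not say whether a replicate number marks a shared animal or day, and the data do not settle the pairing. Same-numbered anti-CD40 LZ and DZ libraries deviated from their group means together with r of 0.442, 0.197, -0.124 and 0.516, and LZ library 3 went best with DZ library 1 (0.336). Some differences did follow the replicate number in all 4 groups. The library numbered 4 scored highest on component 2 in each group. Libraries 1 and 4 were in each group the replicate pair with the largest chi-square over its degrees of freedom. It was 8.45 in the anti-CD40 LZ, 11.2 in the anti-CD40 DZ, 11.7 in the isotype LZ and 9.29 in the isotype DZ. The replicate block raised the counts to 1533 after anti-CD40, 433 under isotype and 107 in the interaction.

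Of the 29 alternatives, the test against a log2 difference of 0.5, which called 256 genes after anti-CD40, was not tallied by gene. Over the others, for the 104 genes of the naming rule, 2695 values kept direction and side of the threshold. Another 200 kept direction and lost the call, and 3 turned sign, none of which belonged to a called gene. These were Bcl6 at 0.29 without the 2 deepest anti-CD40 DZ libraries, and Ccnb1 at 0.26 in that fit and at 0.21 without anti-CD40 DZ library 1; with 1 library left out its values ran from -0.31 to 0.21.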
